A study of Mus musculus with 12 samples.

Results

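Sorl1, the other receptors of the VPS10 family, the core subunits of retromer and App make up a group of 10 genes, followed here through 12 libraries of mouse ventral hippocampus. The genes were taken by name: the receptors Sorl1, Sort1, Sorcs1, Sorcs2 and Sorcs3, the retromer subunits Vps35, Vps26a, Vps26b and Vps29, and App, the amyloid precursor protein gene. All 10 were among the 13951 genes of the deposited table, and all 10 passed the filter on low values that left 13858 genes. Sorl1 was chosen because its difference between genotypes ran in opposite directions in females and males of these same libraries. Its values are therefore described without a test. The other 9 genes were added as its family and partners and were tested.

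Each library holds polyadenylated RNA from the ventral end of the right hippocampus of 1 mouse, and there are 4 groups of 3 mice: wild-type (WT) mice of either sex and Angelman syndrome (AS) mice of either sex. All mice are labelled C57BL/6J and were 12 to 16 weeks old. The AS mice carry that disease label alone; the mutated allele is not given in the sources used here, so what limits them as a model cannot be stated further. In humans the syndrome arises when neurons lack UBE3A, a ubiquitin ligase expressed there from the maternal allele. The design sets AS against WT mice within each sex and the sexes against each other.

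VPS10 receptors are membrane proteins named after a yeast sorting receptor, and they carry cargo between the Golgi, endosomes and the cell surface. Retromer is the endosomal coat that lifts such receptors out of endosomes before they reach the lysosome. Its core is a trimer of VPS35, VPS29 and 1 of the related subunits VPS26A or VPS26B. SORLA, the product of Sorl1, binds the amyloid precursor protein and, through its cytoplasmic tail, the VPS26 subunit, and so keeps App away from the endosomes in which it is cut to amyloid peptide. Variants of human SORL1 are linked to Alzheimer's disease.

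The annotated start of Sorl1 lies on the minus strand of chromosome 9, and its promoter window is shown because Sorl1 is the gene on which the account turns. Vps26a is shown beside it as the other member whose window holds the same short motif. Both windows run from 250 bases before to 50 bases after a transcription start of RefSeq on GRCm38.p6 and are written 5′ to 3′ on the minus strand. The windows are chr9:42124248-42124547 for Sorl1 and chr10:62486549-62486848 for Vps26a, and capitals mark each match to CACGTG.
Sorl1: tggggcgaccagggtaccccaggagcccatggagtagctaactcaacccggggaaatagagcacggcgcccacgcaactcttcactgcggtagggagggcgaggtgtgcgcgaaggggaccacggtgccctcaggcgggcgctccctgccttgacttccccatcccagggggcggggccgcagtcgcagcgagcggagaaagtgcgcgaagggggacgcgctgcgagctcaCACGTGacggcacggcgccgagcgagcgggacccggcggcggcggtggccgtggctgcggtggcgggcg
Vps26a: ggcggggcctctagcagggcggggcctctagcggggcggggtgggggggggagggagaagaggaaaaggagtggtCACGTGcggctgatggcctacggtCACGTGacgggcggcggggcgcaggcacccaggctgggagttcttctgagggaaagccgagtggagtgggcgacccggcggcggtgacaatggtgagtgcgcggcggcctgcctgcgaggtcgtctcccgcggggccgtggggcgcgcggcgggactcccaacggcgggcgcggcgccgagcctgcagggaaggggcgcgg
CACGTG is the E-box core and reads the same on both strands; it also forms the middle of the CLEAR palindrome, which transcription factor TFEB binds in many lysosomal gene promoters. RefSeq windows were found for 7 of the 10 genes, 9 windows in all, since Sorl1 and Vps26a have 2 each. CACGTG occurred in 3 of the 9, the first window of Sorl1, where it begins at base -19 from the start, and both windows of Vps26a, which overlap each other. Among all 32851 windows of this length 7.15% held CACGTG. The CLEAR palindrome was in both windows of Vps26a and in 0.326% of all windows. The GC box GGGCGG, searched on both strands, was in 7 of the 9 windows, the first window of Sorl1 and that of App included, and in 35.7% of all windows. These are matches of letters in a window, not binding sites. The Sorl1 window contained 37 CG dinucleotides and 72.3% G or C, against medians of 7 and 52.7% over all windows.

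Levels are given as RSEM abundance per transcript length, back-transformed from the deposited values read as natural logs of abundance + 1, and changes are differences in log2(abundance + 1). Whether the deposited logs are natural or base 2 is not stated. If they are base 2, the log2 differences given here shrink by a factor of 0.693. Over the middle of the range the authors' values take the same set of numbers in every library, so a difference there is a difference in rank placed on a common scale. All values of 8 of the 10 genes lie in that range, those of App above it and those of Sorcs1 below it. The labels name no batch. Depth is unknown, and no counting interval can be given.

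Several facts of the whole series touch what follows. All 12 libraries held the markers of hippocampal neurons and glia, and pairs of libraries correlated across genes with r of 0.966 to 0.983, genes not being independent replicates. WT female replicate 1 had Xist, the RNA of the inactive X chromosome, at a log2 level of 0.35, within the male range of 0.17 to 0.52 and below the 6.00 to 6.45 of the other females, while its Y-linked genes were at the female level. These signals do not both match its sex label. The female differences of Sorl1, Sorcs3, App, Sort1, Sorcs1 and Vps26a are also given without this library. So are the difference of Vps29 over both sexes and the sex difference of Aph1c. Counts over the marker and gene lists include it. Choroid plexus RNA was high in 4 libraries, with summed abundance of the 10 markers reaching 3632 and 2098 in WT female replicates 2 and 1, 3475 in replicate 2 of the AS females and 657 in replicate 2 of the AS males, against 13.9 to 102 in the other 8. In bulk tissue, fewer cells of a type and less RNA per cell cannot be told apart.

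The 10 genes spanned more than 2 orders of magnitude in level. App was far the most abundant at 530 ± 22.1 (abundance, mean ± SD, n = 12 libraries), above 99.4% of the genes tested. Sort1, which encodes sortilin, the receptor of proneurotrophins and progranulin, came next at 122 ± 6.52. Vps35, the scaffold of the trimer, at 85.8 ± 6.29 and Vps29, a small subunit with a phosphoesterase fold, at 82.4 ± 5.99 overlapped in range. Sorl1 stood below them at 46.2 ± 5.55, above 84.4% of genes, and its lowest library was above the highest of every gene further down.

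**Figure D1:**
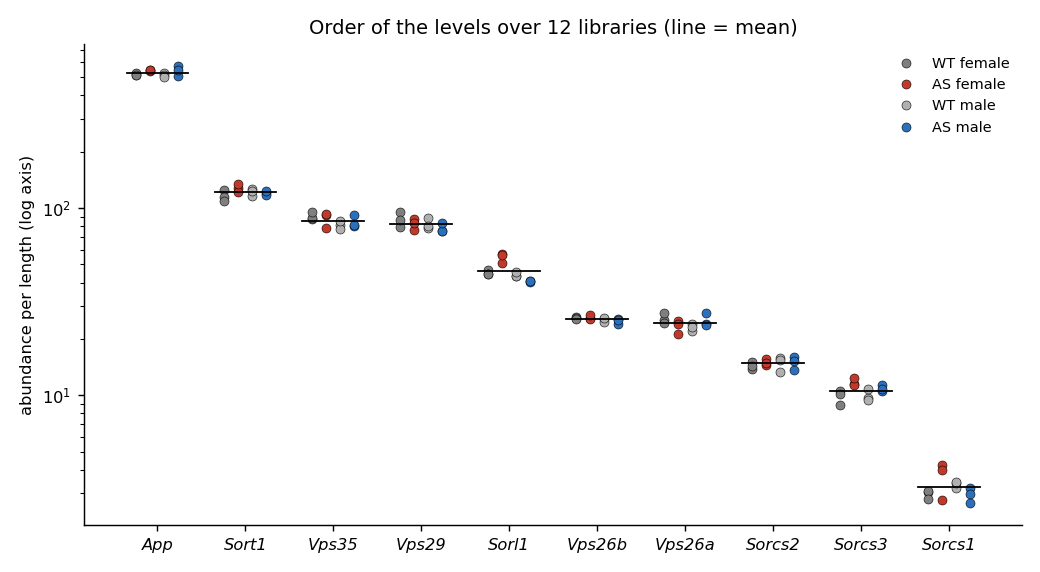
Abundance per length of the 10 genes in each of the 12 libraries on a log axis, coloured by group, with the mean of all libraries as a line. App stands highest at a mean of 530 and Sorcs1 lowest at 3.23; only the neighbours Vps35 and Vps29, and Vps26b and Vps26a, overlap in range.

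The alternative subunits Vps26b at 25.6 ± 0.767 and Vps26a at 24.3 ± 1.83 were about equally abundant and overlapped. Below them came the sortilin-related receptors Sorcs2 at 14.8 ± 0.855, Sorcs3 at 10.6 ± 0.978 and Sorcs1 at 3.23 ± 0.482, each apart from its neighbours. Sorcs2 encodes a receptor of proneurotrophins with p75NTR, Sorcs3 a postsynaptic receptor prominent in the hippocampus, and Sorcs1 a receptor that sorts App and synaptic membrane proteins. This order does not depend on the base of the logs, but the sizes do.

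Sorl1 was highest in AS females and lowest in AS males, and the 2 WT groups lay between. The log2 level in WT females was 5.57, 5.50 and 5.50 in replicates 1, 2 and 3. AS females stood at 5.85, 5.69 and 5.83. All 3 AS females were above all 3 WT females. In WT males the level was 5.48, 5.48 and 5.55, and in AS males it was 5.38, 5.38 and 5.39. All 3 AS males were below all 3 WT males and lay within a very narrow band, with an SD of 0.0075 log2. Ranked from the most abundant gene of each library, Sorl1 moved from places 2134 to 2274 in WT females to 1736 to 1939 in AS females, and from 2176 to 2306 in WT to 2473 to 2496 in AS males.

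**Figure D2:**
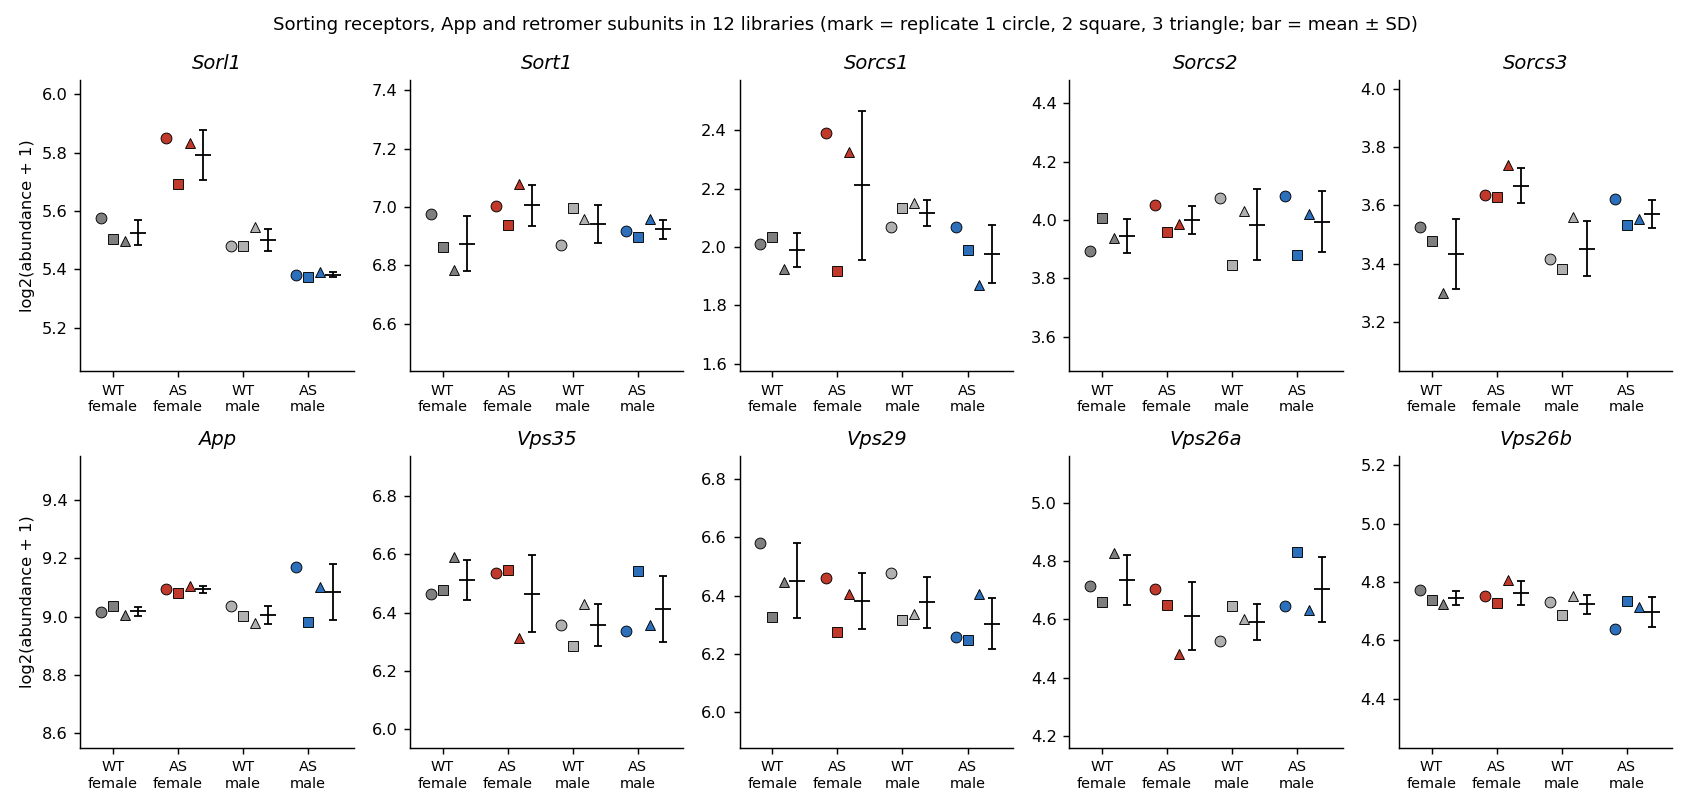
Log2(abundance + 1) of the 10 genes in each library by group, with replicates 1, 2 and 3 as circle, square and triangle and group mean ± SD (n = 3) as bars; every panel spans 0.5 log2 either side of the gene's mean. In Sorl1 the AS females lie above and the AS males below the WT libraries of the same sex, while the groups overlap in most other panels.

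In abundance, Sorl1 averaged 45.1 ± 1.36 in WT females against 54.5 ± 3.23 in AS females (SD, n = 3). Among males the WT mean was 44.3 ± 1.19 and the AS mean 40.7 ± 0.217. AS females thus stood 0.27 ± 0.06 log2 above WT females (SE of the model), which is 20.3% in abundance + 1. AS males stood 0.12 ± 0.06 below WT males, a log2 difference of -0.12 or -7.97%. The difference between these differences, male minus female, was -0.39 ± 0.08, with no test because Sorl1 was selected on it. Neither these sizes nor their SEs allow for that selection, and the settings that follow use the same libraries. The residual SD of Sorl1 was 0.051 log2, against a median of 0.110 for the 500 genes nearest to it in level. Leaving out WT female replicate 1 for its Xist level gave a female difference of 0.29. Without the 4 libraries high in choroid plexus RNA it was 0.34, and the male difference stayed at -0.12. Wherever those 4 libraries are left out, here and below, replicate 3 alone stands for the WT females. With the mean of the choroid plexus markers as a covariate the differences were 0.25 in females and -0.11 in males.

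As background for this pattern, 37 of the 13858 genes tested (0.267%) had all AS females above all WT females and all AS males below all WT males. A share of 0.455% had opposite directions without overlap in either arrangement. Sorl1 was picked for belonging here, so nothing is read from these shares. None of the 70 cell type markers in the table, from 10 lists, had this arrangement without overlap.

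The medians of the marker lists went with Sorl1 in some lists and against it in others. Those of pyramidal and granule neurons, microglia (0.07 in females, -0.03 in males) and endothelium (0.02 and -0.04) had its signs. Astrocytes (-0.03 and 0.06), oligodendrocyte precursors (-0.09 and 0.04) and choroid plexus had the opposite signs. The other lists had the same sign in both sexes. Of the 8 markers of pyramidal and granule neurons, 7 were higher in AS than in WT females, with a median log2 difference of 0.06, and 6 were lower in AS than in WT males, with a median of -0.07. Their summed abundance overlapped, at 2741 to 2981 in WT and 2709 to 3148 in AS females and at 2852 to 3159 in WT and 2603 to 3148 in AS males. The 10 choroid plexus markers went the other way, all lower in AS females (median -1.08) and all higher in AS males (median 0.46). The male direction rests on AS male replicate 2, with a mean log2 of the markers of 3.16, since the other AS males stood at 1.08 and 1.02 and the WT males at 1.47, 1.35 and 1.14. The female libraries were as uneven, with WT female replicates 1 and 2 at 4.52 and 5.47 and AS female replicate 2 at 5.25. WT female replicate 3 stood at 1.68 and AS female replicates 1 and 3 at 1.26 and 1.60. All 8 oligodendrocyte markers were higher in AS females and 7 in AS males, with medians of 0.23 and 0.08, and their summed abundance overlapped at 1587 to 2151 in WT and 1563 to 2536 in AS females and at 1359 to 2503 in WT and 1599 to 1871 in AS males. The 8 microglial markers ran from 175 to 200 in WT and 183 to 210 in AS females and from 177 to 194 in WT and 164 to 189 in AS males. No marker of these lists had a mean abundance under 1, and their part in the values of Sorl1 was not tested.

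Among the 5 VPS10 receptors, Sorl1 made up 23.9% ± 0.64 of their summed abundance in WT females and 25.6% ± 0.61 in AS females (SD, n = 3). The share was 22.8% ± 0.52 in WT males and 21.4% ± 0.32 in AS males. Sort1 held the largest share in every library, from 59.1% to 64.5%. The ratio of App to Sorl1 abundance was 11.5 ± 0.377 in WT females and 10.0 ± 0.54 in AS females, against 11.6 ± 0.528 in WT males and 13.3 ± 0.841 in AS males. In the ratio of ligand to receptor transcript the AS groups therefore stood on either side of the WT groups, and this follows from the pattern by which Sorl1 was picked.

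None of the other 9 genes passed the test in any of the 5 comparisons, by limma with Benjamini-Hochberg adjustment over all 13858 genes at 0.05. The comparisons were AS minus WT over both sexes, in females and in males, the interaction of genotype and sex, and male minus female. Over all genes the percentage called was 0% in each of the 4 comparisons of genotype and 0.0361% (5 genes) between the sexes, 0.0289% higher and 0.00722% lower in males. At an unadjusted p under 0.05 the members numbered 1 of 9 over both sexes, against 5.35% of all genes (741), and 1 of 9 in females, against 3.16% (438). The count was 0 of 9 in males, against 6.42% (890), 0 of 9 for the interaction, against 3.77% (522), and 0 of 9 between the sexes, against 6.91% (958). Both single members were Sorcs3.

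Sorcs3 was the gene of the 9 with the smallest p. Its log2 level was 3.53, 3.48 and 3.30 in WT females and 3.64, 3.63 and 3.74 in AS females, without overlap. In males it was 3.42, 3.38 and 3.56 in WT and 3.62, 3.53 and 3.55 in AS mice, where the highest WT library lay inside the AS range. Sorcs3 averaged 0.18 ± 0.06 log2 higher in AS mice over both sexes (SE, 6 mice per genotype), with a 95% interval of 0.05 to 0.30. The unadjusted p was 0.00986 and the adjusted p by limma was 0.828, so the difference did not pass.

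By sex, the Sorcs3 difference was 0.23 ± 0.08 in females and 0.12 ± 0.08 in males, with all 3 AS libraries above the WT mean in each sex. The interaction was -0.12 ± 0.11 (limma, adjusted p = 0.987). Without WT female replicate 1 the female difference was 0.28, and without the 4 libraries high in choroid plexus RNA it was 0.39. The latter value sets AS females against WT female replicate 3 alone, the lowest WT female in Sorcs3. The markers of interneurons went the other way from Sorcs3 in females. Of the 8, 4 were lower in all AS than in all WT females, against 4.02% of all genes. Their summed abundance was 663 to 729 in AS against 771 to 928 in WT females, and none of the 8 had a mean abundance under 1. In males 6 of the 8 had a lower mean in AS mice, 1 of them without overlap against 5.18% of all genes, and over both sexes 8 of 8 did. Oligodendrocyte markers went in the direction of Sorcs3, with all 8 higher in AS females and 7 in AS males. The part of either list in the values of Sorcs3 was not tested.

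App had a small difference in the same direction in both sexes that did not pass. Its log2 level was 9.02, 9.04 and 9.00 in WT females and 9.10, 9.08 and 9.10 in AS females, groups that did not overlap. In WT males it was 9.04, 9.00 and 8.98, and AS males stood at 9.17, 8.98 and 9.10 and overlapped them. AS minus WT was 0.08 ± 0.04 over both sexes, with a 95% interval of -0.01 to 0.16 (limma, adjusted p = 0.914). The upper end of that interval corresponds to 12.0% in abundance + 1. The differences were 0.07 ± 0.06 in females and 0.08 ± 0.06 in males. The female value was 0.07 without WT female replicate 1 and 0.12 ± 0.04 after quantile normalization of the whole table, which acts on App because its values lie above the range shared by all libraries. The male value rested on single libraries, at 0.04 without AS male replicate 1 and 0.13 without AS male replicate 2, the only male among the 4 libraries high in choroid plexus RNA. Oligodendrocyte markers, higher in AS mice of both sexes as given above, were not tested for their part in it.

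Of the 9 genes, 2 (Sorcs3 and App) had AS females above WT females without overlap, and 1 (Sorcs1) had AS males below WT males without overlap. Over all genes 4.99% had AS females higher in this way and 4.02% lower, 9.01% in all. In males 6.02% had AS higher and 5.18% lower, 11.2% in all. For Sorcs1 the separation in males was nominal: the highest AS and the lowest WT male both stood at 2.07.

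**Figure D3:**
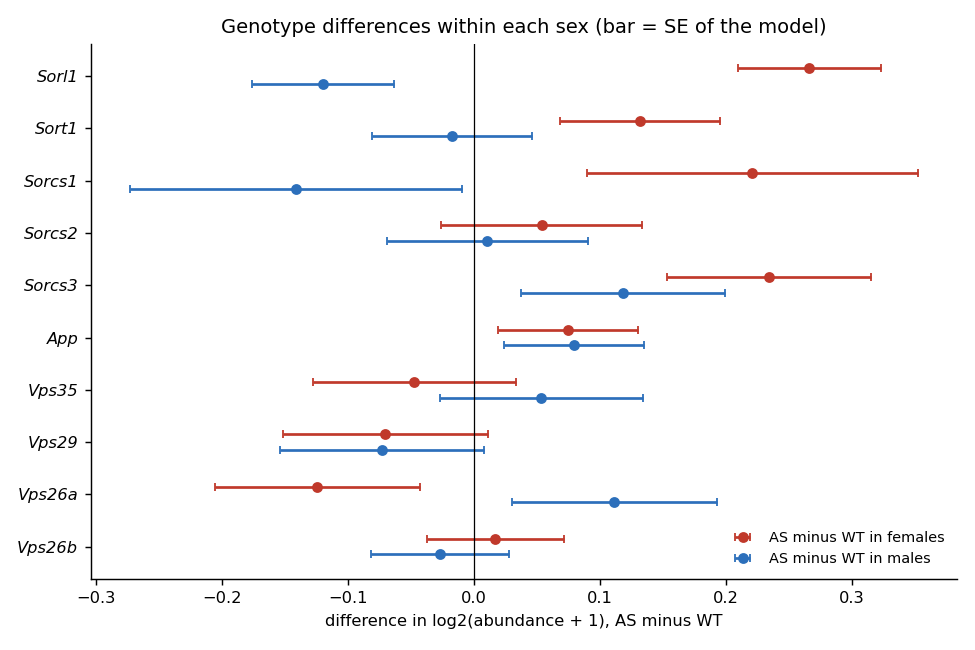
Differences in log2(abundance + 1), AS minus WT, for the 10 genes in females (red) and males (blue), with the SE of the limma model as bars. Sorl1 lies at 0.27 in females and -0.12 in males, the contrast it was picked for, Sorcs3 at 0.23 and 0.12, and none of the 9 genes tested was called.

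Sort1 had no called difference. Its log2 level was 6.97, 6.86 and 6.79 in WT females and 7.00, 6.94 and 7.08 in AS females, which overlap. In males it lay between 6.87 and 7.00 in WT and between 6.89 and 6.96 in AS mice. The female difference was 0.13 ± 0.06 (limma, adjusted p = 1.00), with values of 0.09 without WT female replicate 3, 0.18 without WT female replicate 1 and 0.25 without the 4 libraries high in choroid plexus RNA. The interaction was -0.15 ± 0.09 (adjusted p = 0.987), with a 95% interval of -0.35 to 0.05, and -0.26 without the same 4 libraries. Leaving out those 4 keeps only replicate 3 of the WT females, the lowest of them in Sort1.

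Sorcs1, the least abundant member, split within AS females. Replicates 1 and 3 were at 2.39 and 2.32 and replicate 2, a library high in choroid plexus RNA, at 1.92, below the WT female mean of 1.99. The difference was 0.22 ± 0.13 in females and -0.14 ± 0.13 in males, and the interaction of -0.36 ± 0.19 did not pass (limma, adjusted p = 0.987). Its interval of -0.77 to 0.04 holds both 0 and the size seen in Sorl1. The female value was 0.23 without WT female replicate 1, 0.13 without AS female replicate 1 and 0.37 without AS female replicate 2. The male value was -0.09 without AS male replicate 3. Leaving out the 4 libraries high in choroid plexus RNA gave 0.43 in females and -0.58 for the interaction. In that setting replicate 3 alone, the lowest WT female in Sorcs1, stands for the WT females. With log2(abundance + 5), which compresses low levels, the values were 0.12 in females, -0.07 in males and -0.19 for the interaction. Sorcs2 lay between 3.84 and 4.08 in all 12 libraries and differed by 0.03 ± 0.06 over both sexes (adjusted p = 0.978), a value that ran from -0.0027 to 0.061 as single libraries were left out.

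The retromer trimer showed no called difference by genotype or sex. Vps35 ran from 6.46 to 6.59 in WT and 6.31 to 6.55 in AS females, and from 6.29 to 6.43 in WT and 6.34 to 6.54 in AS males. Its difference over both sexes was 0.003 ± 0.057, with a 95% interval of -0.12 to 0.13, which is -8.10% to 9.26% in abundance + 1. Males averaged 0.10 lower than females, a difference of -0.10 ± 0.06 (limma, adjusted p = 0.762). With any 1 library left out that difference lay between -0.14 and -0.08. Vps29 differed by -0.07 ± 0.06 over both sexes (adjusted p = 0.946), and by -0.04 without WT female replicate 1 and -0.03 without the 4 libraries high in choroid plexus RNA. Without those 4 the sex difference of Vps35 was -0.16, with WT females represented by replicate 3 alone, their highest library for Vps35.

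Vps26a and Vps26b encode alternative subunits of the same place in the trimer. Vps26b was the steadiest of the 10 genes, between 4.64 and 4.81 in all libraries, with a residual SD of 0.039 log2 and a difference of -0.005 ± 0.039 over both sexes (95% interval -0.09 to 0.08). Vps26a was lower in AS than in WT females and higher in AS than in WT males on average, with overlap in both sexes. Its log2 level was 4.72, 4.66 and 4.83 in WT females and 4.70, 4.65 and 4.48 in AS females. Among males it was 4.52, 4.65 and 4.60 in WT and 4.65, 4.83 and 4.63 in AS mice.

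For Vps26a the differences were -0.12 ± 0.08 in females and 0.11 ± 0.08 in males. The interaction of 0.24 ± 0.11 had a 95% interval of -0.02 to 0.49 and did not pass (limma, adjusted p = 0.987). Single libraries carried these values, which were -0.06 in females without AS female replicate 3, -0.08 without WT female replicate 3 and 0.05 in males without AS male replicate 2. The female value was -0.13 without WT female replicate 1 and -0.24 without the 4 libraries high in choroid plexus RNA. The latter value sets AS females against WT female replicate 3 alone, the highest WT female in Vps26a. The ratio of Vps26b to Vps26a abundance was 1.01 ± 0.071 in WT and 1.12 ± 0.127 in AS females (SD, n = 3), and 1.10 ± 0.068 in WT and 0.997 ± 0.064 in AS males, with overlap in both sexes.

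The wider pathway was taken from 11 lists of named genes, which include the 10 members. Of the 111 genes listed 104 were in the fit, Sorl1 included. Sorl1 was left without a test, and none of the others passed in any of the 5 comparisons. Besides the members, 94 listed genes were tested, of which 4 had an unadjusted p under 0.05 over both sexes, 1 in females, 4 in males, 1 for the interaction and 3 between the sexes, beside the shares of all genes given above. From each list the gene with the smallest p is named with the comparison that gave it.

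Genes that work with retromer on endosomes gave small differences. All 8 sorting nexins, membrane-bending or cargo-binding partners of the trimer, were tested, with 5 higher and 3 lower in AS mice over both sexes and a median difference of 0.02, against 0.005 over all genes. In females 2 of the 8 were higher (median -0.03) and in males 6 of the 8 (median 0.04). Snx6, a nexin with a BAR domain, had an interaction of 0.27 ± 0.12 (limma, adjusted p = 0.987). The 8 genes of the WASH complex, which builds actin on endosomes, together with capping protein, split into 4 higher and 4 lower over both sexes. In that list Washc3 had an interaction of 0.38 ± 0.15 (adjusted p = 0.987), with 3.88 in AS and 4.06 in WT females and 4.07 in AS and 3.88 in WT males.

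Retriever and the CCC complex recycle receptors in parallel to retromer. Of their 15 genes 6 were higher and 9 lower over both sexes, with a median of -0.03. In females 4 of the 15 were higher and in males 8 of the 15, and the interaction was positive in 11 and negative in 4, with a median of 0.08. Commd10, a subunit of the CCC complex, was 0.21 ± 0.07 higher in AS mice (limma, adjusted p = 0.893). Among 8 tested regulators of retromer 5 were higher and 3 lower, and Rab29, a small GTPase, differed by 0.24 ± 0.12 (adjusted p = 0.914), and by 0.11 without the 4 libraries high in choroid plexus RNA.

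The adaptors that bind receptor tails at the Golgi, such as the GGA proteins, Pacs1 and AP-1 subunits, were higher in AS females in 9 of 10 cases, with a median of 0.07 against 0.005 over all genes. In AS males 3 of 10 were higher, with a median of -0.02 against 0.008. Ap1s2, a small AP-1 subunit, was 0.32 ± 0.13 higher in AS males (limma, adjusted p = 0.763), and 0.16 without WT male replicate 2. Other receptors and SNAREs sorted by retromer were higher over both sexes in 7 of 10 cases, with a median of 0.03. Stx16, a Golgi SNARE, was 0.13 ± 0.04 higher in males than in females (limma, adjusted p = 0.675). With any 1 library left out its difference lay between 0.11 and 0.15.

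Around App, the 10 tested genes of its family and adaptors had 6 higher and 4 lower over both sexes, App included. Aplp1, the neuronal paralog of App, was 0.14 ± 0.05 higher in AS mice (limma, adjusted p = 0.893), with 8.88 in AS and 8.77 in WT females and 8.90 in AS and 8.73 in WT males. The Aplp1 difference was 0.23 without the 4 libraries high in choroid plexus RNA. Secretases and their partners, which cut App, had 8 of 13 higher over both sexes, 5 of 13 in females and 9 of 13 in males, with medians of 0.02, -0.06 and 0.06. Aph1c is a gamma-secretase subunit gene with a close paralog, Aph1b, whose reads may be shared. Aph1c was lower in males than in females by -0.50 ± 0.14 (limma, adjusted p = 0.651), and by -0.28 with log2(abundance + 5). The difference was -0.58 without WT female replicate 1.

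Ligands and co-receptors of the VPS10 receptors were the last list. Of 18 genes 13 were tested, 7 higher and 6 lower over both sexes, with a median of 0.01 against 0.005 over all genes. Bdnf, whose proform binds sortilin, was 0.32 ± 0.11 higher in AS males (limma, adjusted p = 0.748) and stood at 3.52 in AS and 3.20 in WT males, against 3.41 in AS and 3.35 in WT females.

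**Figure D4:**
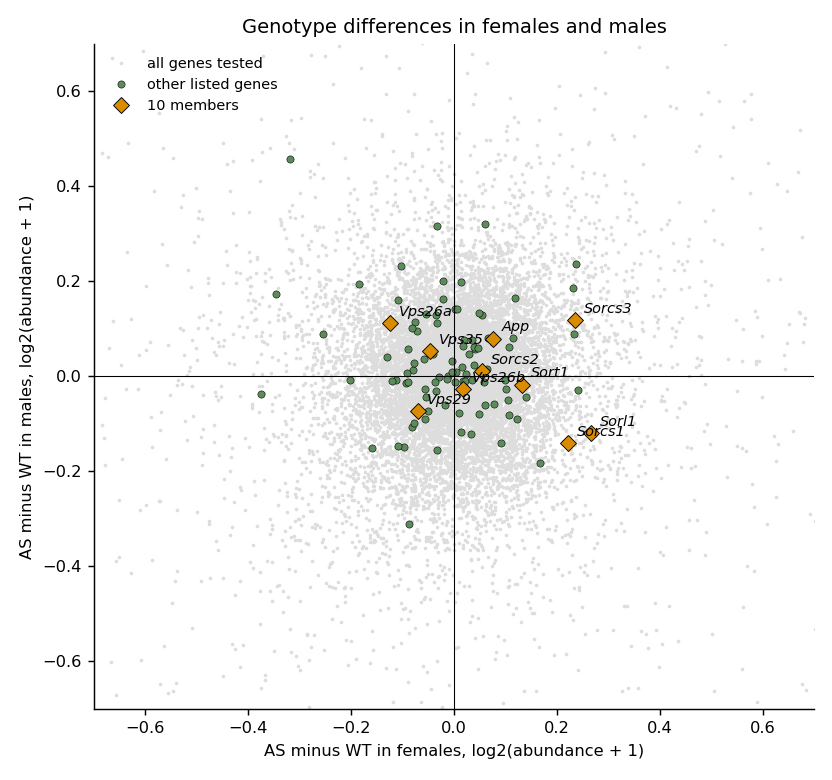
Difference in log2(abundance + 1), AS minus WT, in females (horizontal) and males (vertical) for the 10 members (diamonds), 94 other listed genes (green) and all genes tested (grey); 266 genes fall outside the axes. Sorl1 lies at 0.27 and -0.12 with Sorcs1 nearest to it among the members, and the listed genes spread around 0 in both directions.

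Likeness to Sorl1 was measured as the root mean square distance between standardised log2 values over the 12 libraries, where 0 is an identical profile and the median over 12464 named genes was 1.41. The nearest was Synrg, which encodes gamma-synergin, at 0.381, with group means of 4.39 in WT and 4.50 in AS females and 4.35 in both WT and AS males. Next came Zdhhc18, a palmitoyltransferase gene, at 0.481, Tex52 at 0.592, Ksr1, a scaffold gene of the Ras pathway, at 0.597 and S100a5, which encodes a calcium-binding protein, at 0.620. Tex52 and S100a5 were near the low end of the table, with group means of 0.66 to 1.55 log2. Synrg and S100a5 had a higher mean in AS than in WT females but no lower mean in AS than in WT males. Among the members, Sorcs1 ranked 61 by this distance, Vps26b 111, Sort1 239 and Sorcs3 352, and Vps26a was the most remote at 10830. These ranks describe 12 libraries that share the group means on which Sorl1 was chosen.

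All 10 genes are protein-coding on GRCm38 in GENCODE M21. Sorl1 (ENSMUSG00000049313) spans 41964720 to 42124297 on chromosome 9, minus strand, App (ENSMUSG00000022892) 84949685 to 85173766 on chromosome 16, minus strand, and Sorcs3 (ENSMUSG00000063434) 48206025 to 48805505 on chromosome 19, plus strand. Whether reads were assigned by strand is not given in the sources used here. Sorl1 overlaps 1 antisense gene, Gm16214, which is not a row of the table. Vps35 overlaps the edge of Orc6 and Vps29 that of Fam216a, on the other strand and both in the table, so reads at those ends could belong to either gene.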

How the data were processed

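Polyadenylated RNA of 12 mouse ventral hippocampi was sequenced as 1 library per mouse, 3 per group. Per the submitters' processing notes, Trimmomatic, Bowtie2 and RSEM were used with GRCm38 (mm10), and versions are not given in the sources used here. The authors deposited 1 table of normalized log values, read as natural log (ln) of RSEM abundance plus 1 from their range of 0.10 to 10.08 and back-transformed totals of 547600 to 587600. TPM or FPKM, the log base, the normalization and the filter are not stated. Every value of the first column that lies from 2 to 5 recurs in all 12 columns (100%). Totals do not show depth, which is unknown.

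Values were converted to log2(abundance + 1), and a mean abundance of at least 1 was required, which removed 93 genes. Symbols came from GENCODE M21 for 13735 identifiers, and 216 had none. Group means of all 12 libraries were fitted with limma 3.58.1 in R 4.3.3 (variance trend, 8 residual degrees of freedom, no covariate), with Benjamini-Hochberg adjustment over 13858 genes and a threshold of 0.05. The fit was tested on simulated data. Replicates were numbered by accession order and pair nothing. Named are all members and, from each list, called genes and the gene with the smallest p, and the 5 genes nearest to Sorl1. The members, lists and rule were chosen with earlier results of these data known. Promoter windows are RefSeq's on GRCm38.p6. Alternatives were other added constants, filters, normalization, library weights, a choroid plexus covariate, the log base and left-out libraries.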

Additional observations from a re-analysis of the deposited data

Results flagged for a closer look

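In Sorl1 all 3 AS females stood above all 3 WT females, and all 3 AS males stood below all 3 WT males. The mean difference was 0.27 log2 in females and -0.12 in males. This difference between the sexes was not tested, because the gene was selected on it. Vps26a had all AS females below the WT female mean and all AS males above the WT male mean, with overlap in both sexes. How many of all genes have this arrangement was not counted, and single libraries carried the Vps26a values, as given above. The Vps26a interaction was tested, as in the other 8 genes, and did not pass.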

How the results depend on the processing

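Of the 9 tested genes, 0 were called in each comparison under each of the 23 alternative settings that could be fitted, among which each of the 12 libraries was left out in turn; Sorcs1 was filtered out, and so not tested, at a mean abundance of at least 5. The signs of Sorl1 follow from its selection, and its sizes moved. With 1 library left out its difference ran from 0.24 to 0.32 in females, from -0.13 to -0.10 in males and from -0.44 to -0.36 for the interaction. Read as log2 values, the table gave 0.18 in females and -0.27 for the interaction. Without the 4 libraries highest in choroid plexus markers, a setting chosen after seeing the data that leaves WT females with 1 library assumed to vary like the other groups, the values were 0.34 and -0.46. Sorcs2 over both sexes turned from 0.03 to -0.0027 without WT male replicate 2, with a range of -0.0027 to 0.061 over left-out libraries.

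Counts over all genes moved with the libraries used. With 1 library left out the counts ran from 0 to 2 over both sexes and from 0 to 1 in females, in males and for the interaction. Between the sexes the counts ran from 4 to 8, the 8 without WT female replicate 1, whose sex label is in doubt. Without the 4 libraries they were 2, 5, 1, 2 and 12, in that order, and between the sexes 3 genes were called with a mean abundance of at least 5. The cause was not tested. No paired analysis was possible because replicate numbers only follow accession order. Precision rests on 3 libraries a group at unknown depth: for the members, the SE of a difference within a sex ran from 0.0545 for Vps26b to 0.132 log2 for Sorcs1.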
